A study of Homo sapiens with 4 samples.

Results

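The genes described here encode fibronectin and 9 secreted proteins of the pericellular matrix: FN1, TNC, THBS1, THBS2, SPARC, SPOCK1, POSTN, TGFBI, VCAN and SPP1. They were taken by name as a set of 10 among the 60721 genes of the count table, and all 10 were among the 16137 genes with enough counts to be tested. RNA was sequenced from Hs578T cells, an established mesenchymal-like line from a human breast carcinoma, kept in medium with 10% fetal calf serum and 10 µg/mL insulin. Both groups received GFP together with 1.6 µM RNA, which was a non-targeting control (SCR) in 2 libraries and an siRNA against TLN1 (siTLN1) in the other 2. Polyadenylated RNA was collected after 48 h, and the series describes the replicates as biological. TLN1 encodes talin-1, the adaptor that couples integrin receptors to actin.

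Fibronectin is a secreted dimer that integrins bind and stretch into fibrils at the cell surface, a process that needs the link from integrins to the actin cytoskeleton. The matricellular proteins are secreted into the same space but serve less as scaffold than as regulators: they bind fibronectin, collagens, growth factors and cell-surface receptors and so modify adhesion. In breast carcinoma several of them (tenascin-C, periostin, SPARC and osteopontin) are known as components of the tumour stroma, and mesenchymal-like carcinoma lines make many of them as well.

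The labels held at the target. TLN1 was at 868 and 874 counts-per-million (CPM, scaled by TMM) under SCR and at 51.9 and 44.8 CPM under siTLN1. Totals ran from 31854322 to 46353297 counts per library. The 7 markers of a mesenchymal-like line summed to between 8168 and 9189 CPM in every library. Of these, 2 (CDH2 and CAV1) passed the edgeR test given below as lower in siTLN1, as did 3.77% of all genes tested. ZEB1, AXL and CD44 did not pass but were lower in both siTLN1 libraries than in either SCR library. VIM and TWIST1 overlapped between the groups. Over all genes tested, 24.6% were lower in siTLN1 without overlap. The 7 luminal epithelial markers summed to between 28.0 and 32.6 CPM, with ESR1, EPCAM, CDH1 and KRT19 each under 1 CPM in every library. The 5 leukocyte markers were all under 1 CPM in all libraries (sums from 1.73 to 2.30 CPM), and the 4 endothelial markers summed to between 4.62 and 6.17 CPM. One number recurs in the name of a count column of each group, and the libraries that carry it are called library a, those with the other number library b. With 2 libraries per group, the exact permutation test used for FN1 shares has a smallest two-sided p of 0.333.

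In control cells these genes spanned a wide range, as the plot of CPM by library shows. FN1 held the most counts of any gene in all 4 libraries, and POSTN was the sixth in all 4. To compare levels between genes, counts were also divided by exon length and scaled to transcripts-per-million (TPM). The exon length is the union over all annotated transcripts, so genes with many isoforms, FN1 (17216 bases) among them, are understated on this scale. The union held 7717 bases for TGFBI and 9158 for THBS1. In TGFBI the transcript with the longest coding sequence had 2052 coding bases and 591 untranslated bases after them. For THBS1 these were 3513 and 4097 bases. By this measure TGFBI was understated more than THBS1, so their distance on this scale depends on the length used. In SCR the order was FN1 at 6267 ± 682 TPM (SD, n = 2), POSTN at 5454 ± 652 TPM (SD, n = 2) and SPARC at 4677 ± 279 TPM (SD, n = 2). TGFBI (1326 TPM) and THBS1 (1296 TPM) followed as group means, then SPOCK1 (472 TPM), VCAN (406 TPM), TNC (45.2 TPM), SPP1 (2.50 TPM) and THBS2 (1.45 TPM). The ranges of FN1 and POSTN over the SCR libraries overlapped, as did those of TGFBI and THBS1. Within each SCR library, however, FN1 was above POSTN (6749 against 5915 TPM in library a, 5785 against 4994 TPM in library b). With the exon union as length, TGFBI and THBS1 stood at 1440 and 1438 TPM in library a and at 1213 and 1155 TPM in library b. In siTLN1 the first 5 places kept this order with no overlap between neighbours, while the libraries of VCAN (500 TPM) and SPOCK1 (486 TPM) overlapped.

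**Figure D1:**
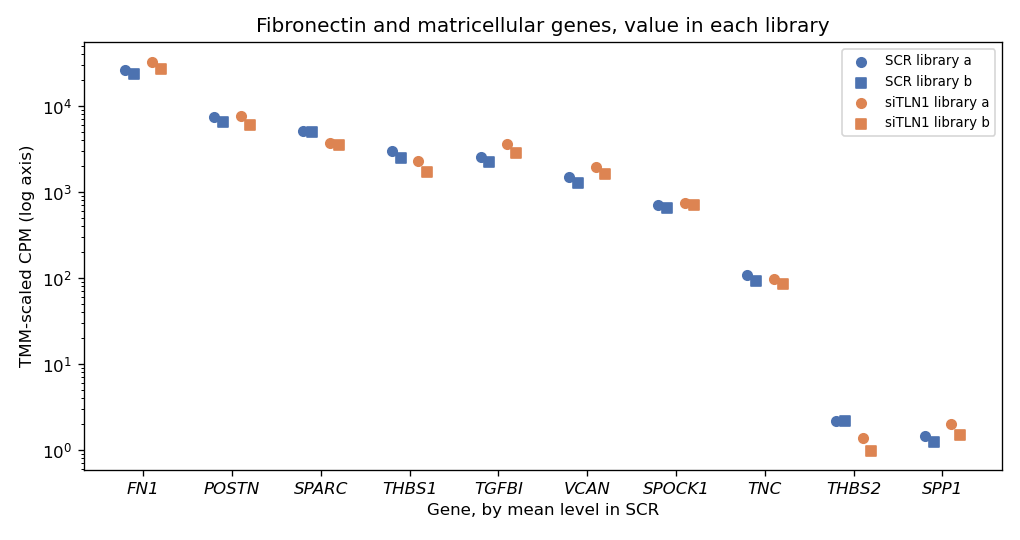
TMM-scaled CPM (log axis) of the 10 genes in each of the 4 libraries, ordered by their mean in SCR; circles are library a, squares library b, blue SCR and orange siTLN1. FN1 lies between 23553 and 32369 CPM, while THBS2 and SPP1 lie between 0.979 and 2.15 CPM.

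Between the groups, 2 of the 10 genes passed the test: SPARC and THBS2 fell, and none rose. Across all 16137 genes, the quasi-likelihood test of edgeR (Benjamini-Hochberg adjusted p under 0.05) called 6.07% in either direction, of which 3.77% of the genes were lower and 2.30% higher in siTLN1. TGFBI, VCAN, FN1 and SPP1 had higher values in both siTLN1 libraries than in either SCR library, and THBS1 had lower ones, but none of these passed the threshold of 0.05. These calls depend on treating the libraries as unpaired. A limma-trend fit with the replicate number as a block, given below, called 6 members and 3645 genes across the table. It added FN1, TGFBI and VCAN as higher and THBS1 as lower. Whether the numbers mark a shared preparation is not stated. TNC, SPOCK1 and POSTN overlapped between the groups. Thus 7 of 10 genes did not overlap, 4 higher and 3 lower, where 48.4% of all genes tested did not overlap (23.9% higher and 24.6% lower). The median log2 fold change of the 10 genes was 0.035, beside 0.0033 over all genes tested. The samples are bulk RNA, in which fewer cells that express a gene and less of its RNA per cell cannot be told apart.

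**Figure D2:**
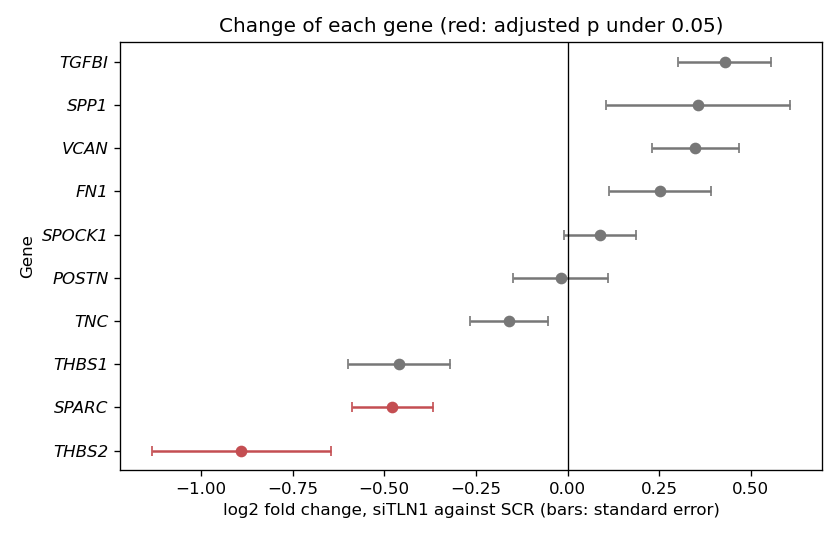
Log2 fold change of each gene in siTLN1 against SCR with its standard error (2 libraries per group), in red where the adjusted p was under 0.05. SPARC (−0.48) and THBS2 (−0.89) are red, and the other values run up to 0.43 for TGFBI.

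Fibronectin itself (FN1, ENSG00000115414.20; GRCh38, chromosome 2, 215360440 to 215436073, minus strand) had 835950 and 820308 counts in SCR and 1178300 and 1266934 counts in siTLN1. These were 2.62% (exact binomial 95% interval 2.62 to 2.63%) and 2.36% (2.35 to 2.36%) of all gene counts in SCR libraries a and b. In siTLN1 libraries a and b they were 3.19% (3.18 to 3.19%) and 2.73% (2.73 to 2.74%), so that 1 count in 31.4 came from FN1 in siTLN1 library a and 1 in 42.4 in SCR library b. The intervals cover counting error only and are far narrower than the gap between libraries of a group. Both siTLN1 libraries were above both SCR libraries, but siTLN1 library b exceeded SCR library a by little. The group means were 2.49% ± 0.189 (SD, n = 2) and 2.96% ± 0.320 (SD, n = 2), a difference of 0.469 percentage points, and the exact two-sided permutation p was 0.333, the smallest this design allows. Mitochondrially encoded genes also took a larger share in siTLN1 (1.90% and 2.36% in SCR, 3.47% and 2.94% in siTLN1), and their part in the FN1 result was not tested. Leaving those genes out gave FN1 shares of 2.54% in SCR and 3.06% in siTLN1. On the CPM scale FN1 was at 26298 and 23553 in SCR and at 32369 and 26960 in siTLN1. Its log2 fold change stood at 0.25 (SE 0.14, adjusted p 0.343), which did not pass the threshold.

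As a set, the 10 genes held 4.64% and 4.17% of the SCR counts and 5.14% and 4.40% of the siTLN1 counts, which overlap. The 9 genes other than FN1 held 1.92% ± 0.145 (SD, n = 2) in SCR and 1.81% ± 0.201 (SD, n = 2) in siTLN1, which overlap too. Within the set the part supplied by FN1 did not overlap between the groups. FN1 supplied 56.5% of the set's counts in each SCR library, against 62.0% and 62.1% in the siTLN1 libraries, a share that does not depend on how libraries are scaled. This part was not tested, and it also rises where other members fall. SPARC and THBS1 were lower in both siTLN1 libraries.

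**Figure D3:**
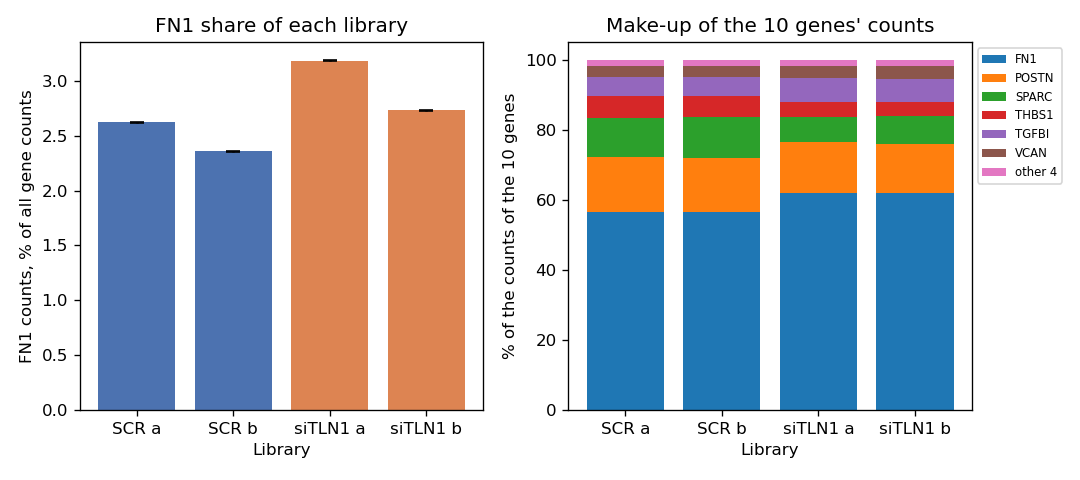
Left, FN1 counts as a percentage of all gene counts in each library, with exact binomial 95% intervals (narrower than the line); right, the percentage of the 10 genes' counts that each gene supplied. FN1 runs from 2.36% to 3.19% of a library, and its part of the set is 56.5% in both SCR libraries and 62.0% and 62.1% in those of siTLN1.

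The FN1 promoter is shown because this gene is the most abundant one by counts in every library. Of the 10 genes, 9 had a promoter in the RefSeq table (build GRCh38.p14), each running from 250 bases before the start to 50 after it. The FN1 entry is chr2:215436019-215436318 on the minus strand. Capitals here and below mark every match, on either strand, to TATAAA (a core promoter element), CCAAT (bound by NF-Y), GGGCGG (GC box), TGACGTCA (cyclic AMP response element), TGACTCA (AP-1 site), GGAATG (the core bound by TEAD factors) and GTCTAGAC (a palindrome of the SMAD-binding box).
FN1: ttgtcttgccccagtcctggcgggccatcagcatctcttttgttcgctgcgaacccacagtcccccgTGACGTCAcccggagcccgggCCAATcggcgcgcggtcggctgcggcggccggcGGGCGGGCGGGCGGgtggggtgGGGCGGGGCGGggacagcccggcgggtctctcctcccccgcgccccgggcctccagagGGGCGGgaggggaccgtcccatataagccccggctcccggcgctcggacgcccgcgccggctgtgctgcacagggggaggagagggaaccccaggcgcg
This window holds 1 TGACGTCA (from −183 to −176 relative to the start), 1 CCAAT and 6 GGGCGG matches, some of which overlap. TGACGTCA occurs in 1.85% of the 35116 promoters of the table and in no other of the 9, CCAAT in 34.6% and in 2 of the 9 (FN1 and THBS1), and GGGCGG in 45.0% and in 5 of the 9. The GC content of this window was 76.7%, beside a median of 58.7% over all promoters. GTCTAGAC occurred in none of the 9 and in 0.202% of all promoters. A match is a description of letters and not a measured binding site.

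SPARC and its relative SPOCK1 encode secreted proteins that share an extracellular calcium-binding module, and SPARC also binds collagen. SPOCK1 (testican-1) also carries heparan and chondroitin sulfate chains. SPARC (ENSG00000113140.11; chromosome 5, 151661096 to 151686975, minus strand) had 5119 and 4917 CPM in SCR and 3705 and 3500 CPM in siTLN1. Both siTLN1 libraries were well below both SCR libraries, and the libraries within each group lay close together. SPARC fell by 28.2%, a log2 fold change of −0.48 (SE 0.11, adjusted p 0.0161). The call passed in each of the 8 other fits with all 4 libraries and no block. It was lost in each fit that left out a library, where the values were −0.45 without SCR library a (adjusted p 0.143), −0.51 without SCR library b (adjusted p 0.1004), −0.52 without siTLN1 library a (0.0534) and −0.43 without siTLN1 library b (0.0712). SPOCK1 (ENSG00000152377.14; chromosome 5, 136975298 to 137598379, minus strand) had 699 and 655 CPM in SCR and 745 and 694 CPM in siTLN1. Its groups overlapped, with a log2 fold change of 0.088 (SE 0.099, adjusted p 0.695).

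The SPARC promoter, from the gene that passed the test at a high level, lies at chr5:151686866-151687165 on the minus strand.
SPARC: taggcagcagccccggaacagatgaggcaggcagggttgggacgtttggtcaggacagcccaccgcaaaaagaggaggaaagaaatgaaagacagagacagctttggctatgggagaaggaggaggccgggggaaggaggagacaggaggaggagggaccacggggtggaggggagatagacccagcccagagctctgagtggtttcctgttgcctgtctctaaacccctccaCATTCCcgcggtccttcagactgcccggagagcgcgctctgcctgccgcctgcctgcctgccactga
It holds 1 match to the TEAD core, on the opposite strand between −17 and −12, and none to the other motifs. The TEAD core occurs in 14.0% of all promoters and in 3 of the 9 here (SPARC, THBS1 and THBS2). TATAAA occurs in 11.5% of all promoters and, among the 9, in POSTN and THBS2.

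THBS1 and THBS2 encode the trimeric thrombospondins, which bind CD36 and CD47, restrain vessel growth and, for thrombospondin-1, activate latent TGF-beta. THBS1 (ENSG00000137801.11; chromosome 15, 39581079 to 39599466, plus strand) was at 2980 and 2501 CPM in SCR and at 2269 and 1716 CPM in siTLN1. The groups did not overlap, but their nearest libraries lay closer together than the libraries within either group. The log2 fold change stood at −0.46 (SE 0.14, adjusted p 0.0708), and THBS1 passed the threshold with DESeq2 (adjusted p 0.0164) and with total counts in place of TMM (adjusted p 0.0124). It also passed without SCR library b (−0.58, adjusted p 0.0216) and without siTLN1 library a (−0.68, adjusted p 0.0115). THBS2 (ENSG00000186340.15; chromosome 6, 169215780 to 169254044, minus strand) was a low transcript, with 68 and 75 counts in SCR and 50 and 46 in siTLN1. These correspond to 2.14 and 2.15 CPM in SCR and 1.37 and 0.979 CPM in siTLN1, with no overlap. THBS2 fell by 46.0%, a log2 fold change of −0.89 (SE 0.24, adjusted p 0.0387).

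The THBS2 call was lost with DESeq2 (adjusted p 0.149), with no filter on low counts (0.0657) and without any 1 of the libraries. The values were −0.89 without SCR library a (adjusted p 0.0542), −0.88 without SCR library b (adjusted p 0.0745), −1.13 without siTLN1 library a (adjusted p 0.0552) and −0.64 without siTLN1 library b (adjusted p 0.273). Exons of THBS2-AS1, transcribed the other way, cover 35.1% of its exon bases, and the reads were counted without strand, so its few counts are uncertain. For THBS1 that share was 7.58%, for SPP1 6.51%, for SPARC 4.12%, for VCAN 3.09% and for TNC 1.34%; FN1, POSTN, TGFBI and SPOCK1 shared none. The THBS2 promoter (chr6:169253797-169254096, minus strand) is the second one of a gene that passed the test.
THBS2: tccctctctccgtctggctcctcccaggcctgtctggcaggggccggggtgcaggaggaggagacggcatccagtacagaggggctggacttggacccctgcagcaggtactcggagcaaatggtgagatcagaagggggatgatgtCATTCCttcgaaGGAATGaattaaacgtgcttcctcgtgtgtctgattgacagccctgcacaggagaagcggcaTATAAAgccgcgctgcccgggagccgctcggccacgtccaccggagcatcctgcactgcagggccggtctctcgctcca
It holds TATAAA from −29 to −24 and 2 copies of the TEAD core on opposite strands, from −103 to −98 and from −91 to −86. POSTN has TATAAA at the same distance from its start.

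TGFBI and POSTN encode the fasciclin-domain proteins beta-ig-h3 and periostin, which bind collagens and integrins. TGFBI (ENSG00000120708.17; chromosome 5, 136028988 to 136063818, plus strand), named for its induction by TGF-beta, was at 2514 and 2214 CPM in SCR and at 3554 and 2811 CPM in siTLN1. It had the highest log2 fold change of the 10 genes, 0.43 (SE 0.13, adjusted p 0.0579). TGFBI passed the threshold with DESeq2 (adjusted p 0.0135), with total counts only (0.0172) and without siTLN1 library b (0.59, adjusted p 0.00466). POSTN (ENSG00000133110.15; chromosome 13, 37562583 to 37598844, minus strand) was at 7315 and 6453 CPM in SCR and at 7540 and 6049 CPM in siTLN1. The siTLN1 libraries enclosed the SCR libraries, and the log2 fold change stood at −0.019 (SE 0.13, adjusted p 0.961). Its sign turned once SCR library a (0.076) or siTLN1 library b (0.13) was left out. These relatives thus had unlike values in the same libraries: TGFBI counts were 0.344 and 0.343 of POSTN counts in SCR and 0.471 and 0.465 in siTLN1, a ratio chosen after its values were seen and not tested.

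VCAN encodes versican, a large chondroitin sulfate proteoglycan that binds hyaluronan. VCAN (ENSG00000038427.16; chromosome 5, 83471618 to 83582303, plus strand) was at 1477 and 1275 CPM in SCR and at 1918 and 1587 CPM in siTLN1. The groups did not overlap, and the log2 fold change stood at 0.35 (SE 0.12, adjusted p 0.0973). Without siTLN1 library b it was 0.48 and passed (adjusted p 0.0245). TNC (tenascin-C; ENSG00000041982.16, chromosome 9, 115019575 to 115118257, minus strand), a multi-armed glycoprotein that interferes with adhesion to fibronectin, was at 109 and 92.2 CPM in SCR and at 96.3 and 83.9 CPM in siTLN1. Its groups overlapped, with a log2 fold change of −0.16 (SE 0.11, adjusted p 0.449). SPP1 (osteopontin; ENSG00000118785.14, chromosome 4, 87975650 to 87983426, plus strand), a phosphoprotein ligand of integrins and CD44, had 46 and 43 counts in SCR and 72 and 70 in siTLN1. As CPM these were 1.45 and 1.23 against 1.98 and 1.49, which nearly touch, with a log2 fold change of 0.36 (SE 0.25, adjusted p 0.477).

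Values also differed between the libraries within a group. The share of all genes tested that had the same order of libraries was not computed. The order described here is thus not shown to be particular to these genes. FN1, THBS1, POSTN, TGFBI, VCAN, SPOCK1, TNC, SPP1 and SPARC were each higher in library a than in library b within both groups, by CPM, whereas THBS2 was higher in library b of SCR and in library a of siTLN1. What the recurring number in the column names marks is not stated, so the comparison above does not use it.

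The 3 transcripts whose pattern over the 4 libraries was most like that of FN1 were CCDC14, APP and NABP1, out of 4255 genes with a mean of at least 50 CPM. Likeness was the root-mean-square distance between log2 CPM values centred on each gene's own mean, and it was 0.011 for CCDC14, 0.013 for APP and 0.014 for NABP1. APP, the amyloid precursor protein, was at 1667 and 1492 CPM in SCR and at 2007 and 1686 CPM in siTLN1. With 4 libraries many genes can resemble one another, and the measure describes these libraries.

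A sequence feature was then set beside these values. Earlier results on these data had singled out the word GACAACA, so its use here is a description. It was searched on the sense strand of 1 GENCODE 29 transcript per gene, the one with the longest coding sequence. Among 12863 tested genes with a coding transcript, 7.32% held it in the 3′ UTR, and 16.8% of those were called lower and 2.02% higher. Of the 10050 genes with no copy in either region, 2.89% were called lower and 2.78% higher. The genes with 2 or more coding copies and none in the 3′ UTR lay between in the share called lower, with 9.38% called lower and 2.19% higher (320 genes). With 1 coding copy and none in the 3′ UTR, 5.54% were called lower and 2.26% higher (1552 genes). The stretches of 29 bases around it are printed for TLN1, for SPARC, THBS1, THBS2 and TNC, and for FN1, with the word in capitals. Those of POSTN and VCAN, which hold 1 coding copy each, are not printed, so the display is not the full set.
TLN1, coding: gtagaggacctGACAACAaccctcaacga
SPARC, coding, first copy: tgtgcagcaatGACAACAagaccttcgac
SPARC, coding, next copy: agagggatgagGACAACAaccttctgact
THBS1, coding, first copy: agtctggcggaGACAACAgcgtgtttgac
THBS1, coding, next copy: tcctcacccttGACAACAacgtggtgaat
THBS1, coding, then: aggcagacacaGACAACAatggggaagga
THBS1, coding, last copy: gagatacctgtGACAACAatcaggatatt
THBS2, coding, first copy: agatcgacacaGACAACAatggagagggt
THBS2, coding, next copy: gggaccagtgtGACAACAacgaggacata
THBS2, coding, last copy: attttgacaatGACAACAtcccagatatt
THBS2, 3′ UTR: agagattagaaGACAACAggcatagcaaa
TNC, 3′ UTR: aatctcccagtGACAACAtcgcaatagtt
FN1, coding, first copy: agggcagaagaGACAACAtgaagtggtgt
FN1, coding, last copy: ccgatgttcagGACAACAgcattagtgtc

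SPARC and THBS2, the genes that passed the test, held 2 and 4 copies, and in THBS2 1 of them was in the 3′ UTR. THBS1, lower but not called, held 4 copies, all in coding sequence, and TNC held 1 copy in the 3′ UTR. TGFBI, SPP1 and SPOCK1, all with positive log2 fold changes but not called, held none in either region. Over the 10050 tested genes with no copy in either region, the median log2 fold change was 0.019. FN1 held 2 coding copies and had a positive value, and VCAN (positive) and POSTN (negative, near 0) held 1 coding copy each. At least 1 coding copy was present in 15.9% of the 12863 tested genes with a coding transcript, and the 28 genes with at least 4 coding copies had 1 called lower and 3 higher. A long coding sequence offers more places for a word, but copies did not follow length in VCAN (10191 coding bases, 1 copy) and SPARC (912, 2 copies). The part of coding length or of the word in any of these differences was not tested.

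**Figure D4:**
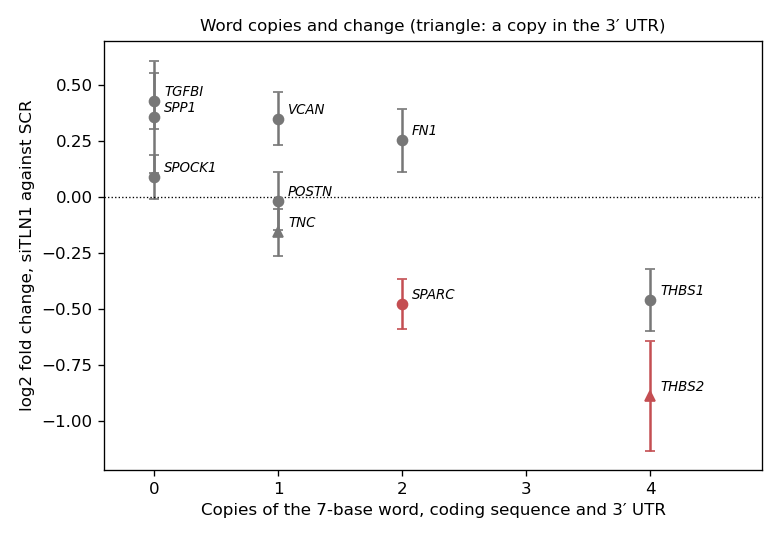
Copies of the 7-base word in the chosen transcript of each of the 10 genes (x axis) against the log2 fold change in siTLN1 against SCR with its standard error (y axis); triangles have a copy in the 3′ UTR, red points passed the test. The genes with 0 copies lie above 0, and those with 4 lie below, while FN1 and SPARC, with 2 copies each, lie on opposite sides.

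The genes around the set were read from 6 lists: cell-surface receptors, relatives of the members, the CCN family, matrix assembly and hyaluronan genes, enzymes that add sugars or phosphate, and proteases that cleave these proteins. Over the lists, 11 genes passed the test. The share called was 7.69% of 13 tested receptors, 20% of 5 relatives and 25% of 4 CCN genes. It was 14.3% of 14 matrix assembly genes, 5.56% of 18 enzymes and 33.3% of 15 proteases, beside 6.07% of all genes tested. The lists are small and were chosen with earlier results of these data known, so these shares are a description. Among 13 tested receptors of 17 listed, ITGB8, an integrin subunit that activates latent TGF-beta, rose from 6.98 and 6.35 CPM to 14.8 and 9.53 CPM (log2 fold change 0.86, adjusted p 0.0191), and the other 12 did not pass. ITGB1, the beta subunit of most fibronectin receptors and the receptor of the list with the highest mean CPM over the 4 libraries, was at 1552 and 1346 CPM in SCR and at 1706 and 1503 CPM in siTLN1 (adjusted p 0.514). The ITGB8 value was 0.52 without siTLN1 library a (adjusted p 0.175). The median log2 fold change was 0.033 for receptors, 0.44 for relatives, −0.061 for the CCN family, 0.11 for matrix assembly, −0.050 for the enzymes and 0.092 for the proteases, beside 0.0033 over all genes tested. The value for relatives rests on 5 tested genes and is that of IBSP, with 29 and 23 counts in SCR and 47 and 41 in siTLN1. IBSP was not called (adjusted p 0.492). The more abundant relatives FSTL1 and THBS3 had values of 0.10 and −0.28.

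Of the 19 relatives, 5 were tested and 1 rose: SPOCK3, a testican like SPOCK1, went from 23 and 37 counts to 79 and 121 (log2 fold change 1.41, adjusted p 0.00338). FSTL1, a SPARC-family protein and the relative with the highest mean CPM over the 4 libraries, was at 2750 and 2420 CPM in SCR and at 2898 and 2662 CPM in siTLN1 (adjusted p 0.676). In the CCN family, another matricellular family, 4 of 6 genes were tested and CCN3 fell (log2 fold change −0.49, adjusted p 0.0212). Its libraries were at 427 and 377 CPM in SCR and at 318 and 253 CPM in siTLN1. CCN1, a mechanically responsive member, was at 915 and 1050 CPM in SCR and at 1062 and 985 CPM in siTLN1 (adjusted p 0.826). The CCN3 value was −0.33 without siTLN1 library b (adjusted p 0.153), and 7.80% of its exon bases lie opposite another gene.

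Among the 14 tested genes of matrix assembly and hyaluronan (16 listed), 2 rose and none fell. HAS2, which synthesises hyaluronan, went from 187 and 151 CPM to 258 and 213 CPM (log2 fold change 0.48, adjusted p 0.0314). HAPLN3, which links hyaluronan to versican-type proteoglycans, went from 11.8 and 14.2 CPM to 19.6 and 17.9 CPM (log2 fold change 0.52, adjusted p 0.0172). The HAS2 value was 0.34 without SCR library b (adjusted p 0.131) and 0.34 without siTLN1 library a (adjusted p 0.272), and HAPLN3 was 0.39 without SCR library a (adjusted p 0.0865) and, at 0.45, without siTLN1 library a (adjusted p 0.186). PXDN, a peroxidase that cross-links matrix and the gene of the list with the highest mean CPM (not corrected for length), had an adjusted p of 0.509. Of 18 sugar- and phosphate-adding enzymes, all tested, XYLT1 alone passed. XYLT1 starts the chains of proteoglycans such as versican, and it fell by 27.9%, from 69.8 and 56.2 CPM to 49.8 and 41.1 CPM (log2 fold change −0.47, adjusted p 0.0390). That call was lost when SCR library a (−0.31, adjusted p 0.130) or siTLN1 library b (−0.33, adjusted p 0.189) was left out and with no filter (adjusted p 0.0657). FAM20C, the kinase of secreted proteins such as osteopontin, had an adjusted p of 0.586.

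The proteases held the most calls, 5 of 15 tested (18 listed), of which 3 rose and 2 fell. ADAMTS15 and ADAMTS5, enzymes that cleave versican, had log2 fold changes of 0.53 (adjusted p 0.0105) and 0.62 (adjusted p 0.0432). ADAMTS5 went from 120 and 96.8 CPM to 196 and 138 CPM, and ADAMTS15 from 21.2 and 26.4 CPM to 34.7 and 34.1 CPM. ADAMTS9, a further versican-cleaving enzyme, fell from 47 and 35 counts to 11 and 15 (log2 fold change −1.97, adjusted p 0.00331). The plasminogen activators differed in sign. PLAU went from 385 and 379 CPM to 487 and 518 CPM (log2 fold change 0.40, adjusted p 0.0188), and PLAT fell by 36.4%, from 58.9 and 77.1 CPM to 40.0 and 46.5 CPM (adjusted p 0.00914). CTSB, which had the highest mean CPM of the list, had an adjusted p of 0.695.

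Leaving out 1 library ended the protease calls except that of ADAMTS9. PLAU was lost without SCR library a (0.41, adjusted p 0.0590), SCR library b (0.39, 0.101), siTLN1 library a (0.44, 0.0698) and siTLN1 library b (0.35, 0.106). PLAT was lost without siTLN1 library a (−0.55, adjusted p 0.0679), and ADAMTS15 when SCR library a (0.38, 0.0582) or siTLN1 library a (0.52, 0.0822) was left out. ADAMTS5 was lost without siTLN1 library a (0.35, adjusted p 0.262), with DESeq2 (0.235), with limma-voom (0.0570), at a mean of 10 counts (0.0513) and with no filter (0.0522). Antisense exons cover 31.1% of the exon bases of PLAU and 5.92% of those of HAS2. Of the called list genes that were lower, ADAMTS9, XYLT1 and PLAT held GACAACA in coding sequence (5, 2 and 2 copies) and CCN3 did not. Of those that were higher, ITGB8 held 3 copies (1 in the 3′ UTR), HAS2 held 1, and SPOCK3, HAPLN3, ADAMTS15, PLAU and ADAMTS5 held none.

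**Figure D5:**
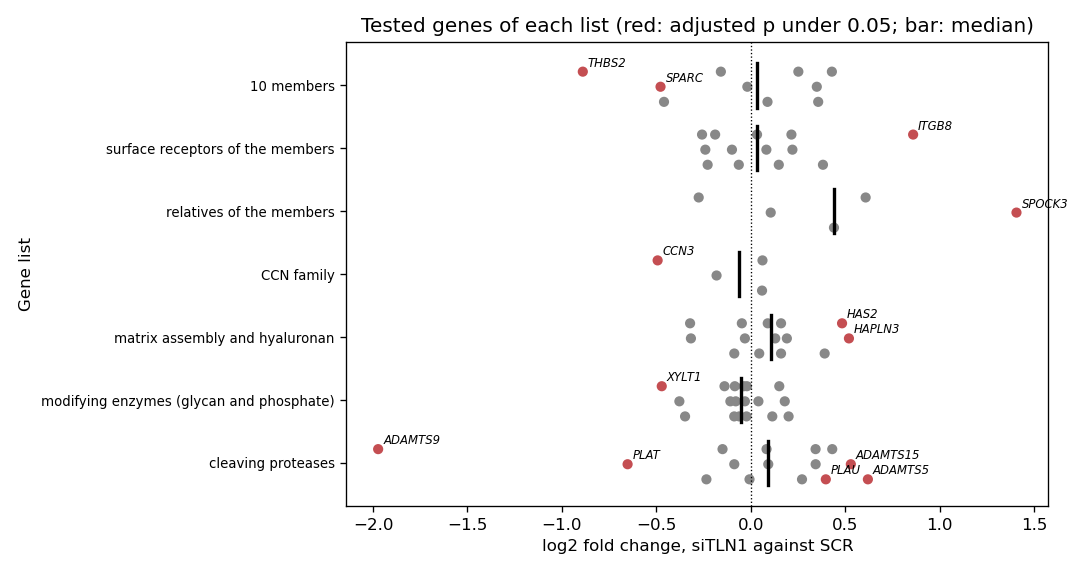
Log2 fold change in siTLN1 against SCR of each tested gene of the 10 members and of the 6 lists (height within a list has no meaning); red and named where the adjusted p was under 0.05, with a black bar at the list's median. The calls run from −1.97 for ADAMTS9 to 1.41 for SPOCK3, and most genes lie near 0.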

How the data were processed

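Per the file headers, the authors deposited gene counts, which featureCounts 2.0.0 made from read pairs without a strand option on GENCODE 33 (GRCh38), with exon length as a further column. Per the submitters' processing notes, reads were aligned with STAR 2.7.9a. The deposited log2 CPM table covers 16137 genes, the tested set, and 100% of its values, ordered within each group, matched TMM log2 CPM from edgeR within 1e-06. Count columns were mapped to groups only, since their numbers match no label, and 0 columns were left out.

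Genes were kept by filterByExpr (minimum count 10, minimum total 15) and compared with edgeR 4.0.16 (TMM, glmQLFit with robust estimation, glmQLFTest) in R 4.3.3, with Benjamini-Hochberg adjustment over 16137 genes and a threshold of 0.05. The p values set the difference between groups against the spread between these libraries, 2 per group, with the spread estimated partly across genes. Replicates differed by more than counting noise (chi-square per degree of freedom 13.7 in SCR and 18.1 in siTLN1). In simulated data of this comparison (15839 genes tested) 163 of 200 genes set to a 2-fold change were called, with 12 false calls beside them. At 1.5-fold 105 of 200 were called (15837 genes tested), and with no gene changed 0 of 15825 were called. The simulation gave all genes 1 common dispersion (biological coefficient of variation 0.080) and independent libraries. Its rates may therefore differ from those of the real libraries. Alternatives used DESeq2 1.42.0 and limma 3.58.1, total counts, RLE scaling, other filters, a replicate block and each library left out.

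The members and lists were chosen with earlier results of these data known. Genes named are TLN1, the members, the called genes of each list (at most 5) with its gene of highest mean CPM over the 4 libraries, and 3 genes most like FN1. Promoters are from RefSeq (GRCh38.p14).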

Additional observations from a re-analysis of the deposited data

How the results depend on the processing

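With all 4 libraries and no block, the 10 members kept their direction in all 8 alternative fits, and 74 of 80 values kept their side of the threshold. The number of members called was 2, and it was 4 with total counts only (SPARC, THBS2, THBS1 and TGFBI) and 1 with no filter on low counts (SPARC). With DESeq2 it was 3 (SPARC, THBS1 and TGFBI). Leaving out 1 library gave from 0 to 2 members (TGFBI and VCAN without siTLN1 library b), and each such fit rests on 1 library in a group, assumed to vary like the other group. The count of genes called over the whole table was 980, and from 347 (without siTLN1 library a) to 1116 with 1 library left out. It was 663 with no filter. With 1 library left out, the log2 fold change of POSTN ran from −0.19 to 0.13, of CCN1 from −0.036 to 0.16, of PXDN from −0.0038 to 0.31 and of FAM20C from −0.30 to 0.040. As a share of TPM, FN1 made up 0.627% in SCR and 0.721% in siTLN1, since its long exon union lowers its weight. The cause of the other differences was not tested.

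The replicate numbers of the log2 CPM columns share no stated preparation, and the differences between replicates correlated across genes at 0.19 over all 16137 genes and at 0.54 over the 10487 with a mean of at least 5 CPM, where all members but THBS2 and SPP1 lie. With the replicate block, limma-trend called 3645 genes (966 without it) and 6 members. FN1 (adjusted p 0.0188), VCAN (1.66e-05) and TGFBI (5.14e-07) were then called higher and THBS1 (2.17e-08) lower, beside SPARC and THBS2. Whether the numbers mark a shared preparation is not stated in the sources used here. Depth limits THBS2 and SPP1, at 43 to 75 counts per library.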

Other observations

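Of the 10 genes, 4 lie on chromosome 5 (VCAN, TGFBI, SPOCK1 and SPARC), where TGFBI ends at 136063818 and SPOCK1 begins at 136975298 (GRCh38). SPOCK1 and TGFBI, though near each other, had log2 fold changes of 0.088 and 0.43, and SPARC, on the same chromosome, one of −0.48.

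Ratios of counts within a library, which no scaling changes, were chosen after their values were seen and were not tested. FN1 had 5.14 and 4.79 counts per SPARC count in SCR, and 8.74 and 7.70 in siTLN1. For TGFBI over THBS1 the ratios were 0.844 and 0.885 in SCR, and 1.57 and 1.64 in siTLN1. In both cases the siTLN1 libraries lay apart from the SCR libraries by more than the libraries of a group did from each other.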
